A study of Mus musculus with 8 samples.

Results

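Clic5, Lgi2, Tmem108, Myo1d and Bicc1 are 5 genes with little known role in hepatic stellate cells, the retinoid-laden perisinusoidal cells of the liver, and they were chosen by their measured array signal, which was higher in stellate cells of mice recovered from liver injury than in cells of normal mice. They are 5 of the 19938 genes that have a probe set naming a single gene on the whole-transcript Affymetrix array used, and they are covered by 7 probe sets. The quiescent group is 4 arrays of stellate cells from normal male Balb/c mice, and the reverted group is 4 arrays of stellate cells from male Balb/c mice given 4 injections of carbon tetrachloride (CCl4), a liver toxin that induces fibrosis, at a dose of 0.5 µl for each g of body weight, 2 in a week, with a rest of 45 days before isolation. No vehicle injection is named for the quiescent mice, and the labels give an age of 18 weeks for both groups in a general statement but of 16 weeks for the reverted mice in a group statement. Cells of both groups were enriched by density centrifugation and sorted on retinoid autofluorescence, so that the sort selects for cells that carried enough retinoid to fluoresce. No label says whether an array holds 1 mouse or a pool, so that the p-values given for other genes reflect the scatter among these arrays, part or all of which may be technical.

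The choice of these genes used the reverted against quiescent difference itself. Their levels and differences are therefore descriptions, without a test. The data went against the choice in 1 respect. A rise near 2-fold was found for 4 of the 5 genes, with folds between 2.08 for Myo1d and 2.50 for Clic5, whereas Bicc1 was 1.40-fold higher.

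These proteins act at the cell cortex, outside the cell and on RNA, and no common pathway is known for them. Clic5 belongs to the chloride intracellular channel family and binds the ezrin-type linkers between membrane and actin in stereocilia and podocyte foot processes. Myo1d is an unconventional class I myosin that links membranes to actin and takes part in left-right and planar cell polarity. Lgi2 is a secreted leucine-rich repeat protein of a family that binds catalytically inactive ADAM receptors at synapses. Tmem108, also called retrolinkin, is a membrane protein of neuronal endosomes and axonal transport. Bicc1 is an RNA-binding protein with KH domains and a SAM domain, whose loss causes cystic kidneys in mice.

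Promoter windows of these genes are shown because the genes were higher in the same arrays, and a window lets the start sites be compared. RefSeq windows (build GRCm38.p6, 250 bases before to 50 after the start of a gene) were matched by symbol for 3 of the 5 genes, with 2 windows for Tmem108, and Myo1d and Bicc1 had no window in the table. Both strands were searched for 6 motifs, and matches are in capitals. The TATA box was searched as TATAAA. The CCAAT box was searched by the letters of its name. The GC box, which binds Sp1-type factors, was searched as GGGCGG. The AP-1 site, bound by Fos and Jun proteins, was searched as TGANTCA. The TEAD site was searched as GGAATG, and the CArG box of serum response factor by its usual consensus. No match overlapped a match to another motif. The windows lie at chr17:44188322-44188621 on the plus strand for Clic5, at chr5:52566257-52566556 on the minus strand for Lgi2, and at chr9:103761788-103762087 and chr9:103692758-103693057 on the minus strand for the first and the other window of Tmem108.
Clic5: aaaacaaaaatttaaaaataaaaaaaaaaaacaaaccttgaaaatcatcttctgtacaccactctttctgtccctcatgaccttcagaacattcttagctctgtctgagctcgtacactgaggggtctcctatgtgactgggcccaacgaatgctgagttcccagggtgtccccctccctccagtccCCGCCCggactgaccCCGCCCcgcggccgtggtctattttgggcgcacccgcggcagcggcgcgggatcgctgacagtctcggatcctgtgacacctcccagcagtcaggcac
Lgi2: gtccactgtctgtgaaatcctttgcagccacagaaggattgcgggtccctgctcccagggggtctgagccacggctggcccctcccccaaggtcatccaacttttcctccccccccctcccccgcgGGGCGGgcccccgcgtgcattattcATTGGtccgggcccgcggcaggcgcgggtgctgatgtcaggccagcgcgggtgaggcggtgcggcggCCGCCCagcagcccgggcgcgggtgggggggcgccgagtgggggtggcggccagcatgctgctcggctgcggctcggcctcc
Tmem108, window 1: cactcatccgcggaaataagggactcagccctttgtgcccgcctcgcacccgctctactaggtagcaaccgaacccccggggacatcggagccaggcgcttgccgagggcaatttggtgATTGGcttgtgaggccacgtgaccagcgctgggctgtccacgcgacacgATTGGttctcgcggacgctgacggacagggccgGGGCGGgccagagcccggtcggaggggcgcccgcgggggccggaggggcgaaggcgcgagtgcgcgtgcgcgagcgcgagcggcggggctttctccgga
Tmem108, window 2: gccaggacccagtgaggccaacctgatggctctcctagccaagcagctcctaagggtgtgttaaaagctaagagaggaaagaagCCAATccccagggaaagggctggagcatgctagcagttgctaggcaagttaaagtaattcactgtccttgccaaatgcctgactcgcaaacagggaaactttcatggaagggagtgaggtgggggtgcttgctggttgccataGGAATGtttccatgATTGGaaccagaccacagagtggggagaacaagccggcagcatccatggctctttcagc

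The GC box was found in the windows of Clic5 (2 matches, at -63 and -48 from the start), Lgi2 (2 matches, at -124 and -32) and Tmem108 (1 match, at -49, in window 1), and 35.7% of all 32851 windows held it. The CCAAT box was found once in Lgi2, at -99, and in each window of Tmem108 with 2 matches, against 37.4% of all windows. The only TEAD match was in window 2 of Tmem108, at -23, and 14.7% of all windows held this motif. The TATA box, AP-1 and CArG letters were in none of the 4 windows, and 13.6%, 7.81% and 1.63% of all windows held them. The windows of Lgi2 and Tmem108 (window 1) were rich in G and C, at 73.3% and 70.3%, while those of Clic5 (54.3%) and of Tmem108, window 2 (52.7%), lay close to the median of all windows (52.7%). No motif was found in all 4 windows.

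All levels below are log2 values from RMA, which corrects background, normalizes arrays and summarises the probes of a probe set, and all differences are reverted minus quiescent on that scale with n = 4 arrays per group. Array medians lay between 7.66 and 7.74. In limma, 105 genes were called higher and 37 lower at an adjusted p under 0.05, and quantile normalization gave 128 and 91. Leaving out single arrays gave counts from 41 to 175 higher and from 13 to 72 lower genes. Quiescent array 4 had the lowest array weight, 0.584, and across genes it correlated at 0.9972 with reverted arrays 2 and 3 and at 0.9972, 0.9968 and 0.9964 with quiescent arrays 3, 1 and 2. In each of the 5 genes every reverted array lay above every quiescent array, a separation found in 4.64% of all genes, and the choice of the genes used the same contrast. A mean at least 2-fold higher was found in 0.125% of all genes, or 25, and 4 of the 5 genes are among these 25. All 5 genes passed a limma call for higher genes, as 0.527% of all genes did, and nothing is read from this count because the choice used the same contrast. In bulk samples of this kind, more cells of a type and more RNA per cell cannot be told apart.

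**Figure D1:**
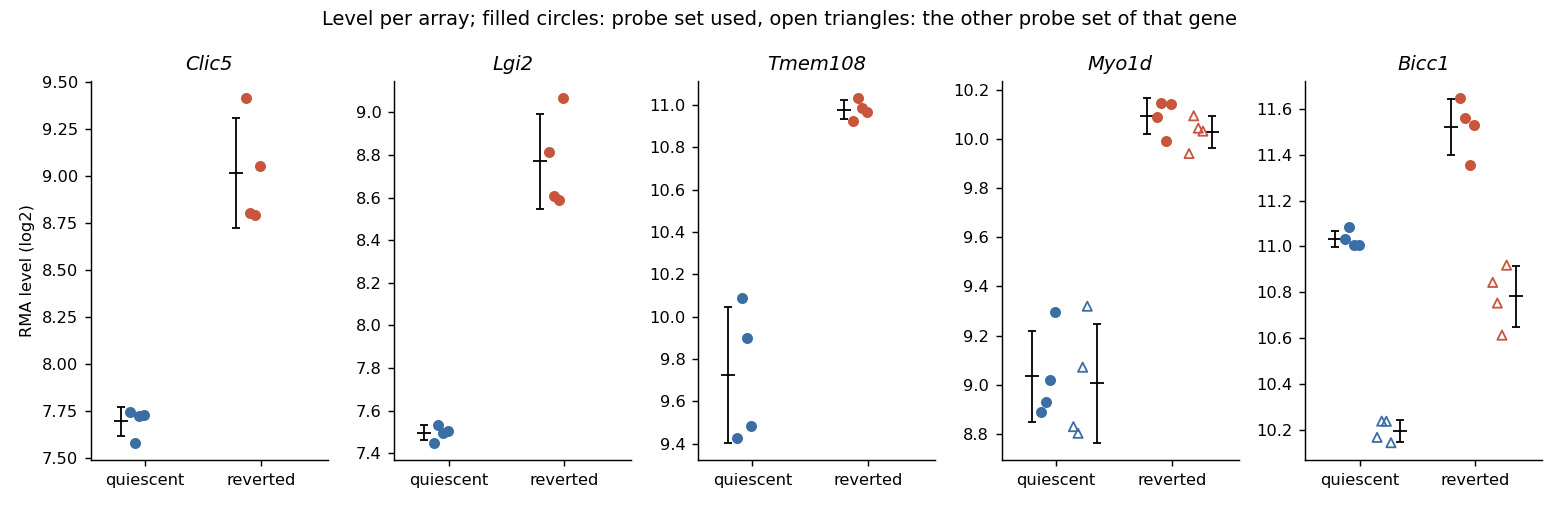
Level per array (RMA, log2) of Clic5, Lgi2, Tmem108, Myo1d and Bicc1 in quiescent (blue) and reverted (red) arrays, each panel with its own axis, which does not start at 0. Filled circles are the probe set used and open triangles the other probe set of Myo1d and Bicc1, and the black bars give mean ± SD (n = 4). No reverted array reaches down to a quiescent one, and the spread is wide in reverted arrays for Clic5, Lgi2 and Bicc1 but in quiescent arrays for Tmem108 and Myo1d.

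The genes of the cell cortex are described first. Clic5 stood at 7.75, 7.58, 7.72 and 7.73 in quiescent arrays 1 to 4 and at 9.41, 8.80, 8.79 and 9.05 in reverted arrays 1 to 4. The quiescent arrays lay close together with array 2 as the lowest, whereas among the reverted arrays arrays 1 and 4 were clearly higher than arrays 2 and 3. The group means were 7.69 ± 0.076 and 9.02 ± 0.29 (SD, n = 4), a difference of 1.32 (SE 0.13) or 2.50-fold. The lowest reverted array still exceeded the highest quiescent array by 1.05. With each array left out, the difference of Clic5 ranged from 1.19 (without reverted array 1) to 1.40 (without reverted array 3).

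Myo1d has 2 probe sets. The one with the higher mean read 8.89, 8.93, 9.02 and 9.30 in quiescent arrays 1 to 4 and 10.09, 10.15, 9.99 and 10.14 in reverted arrays 1 to 4. Quiescent array 4, the array with the lowest weight, was the quiescent array nearest to the reverted group, and the reverted arrays were nearly level. The means were 9.03 ± 0.18 and 10.09 ± 0.073 (SD, n = 4), a difference of 1.06 (SE 0.085) or 2.08-fold. Without quiescent array 4 the difference was 1.15, and the distance from the highest quiescent to the lowest reverted array grew from 0.69 to 0.97. The second probe set of Myo1d read 8.83, 8.80, 9.07 and 9.32 against 9.94, 10.09, 10.04 and 10.03, a difference of 1.02. Both probe sets of Myo1d thus placed quiescent array 4 highest in its group and gave nearly the same difference.

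Lgi2, the secreted member, stood at 7.45, 7.53, 7.50 and 7.50 in quiescent arrays 1 to 4 and at 8.82, 8.61, 8.59 and 9.07 in reverted arrays 1 to 4. The quiescent arrays were within 0.084 of each other, and reverted arrays 1 and 4 were again above arrays 2 and 3, as for Clic5. The means were 7.50 ± 0.035 and 8.77 ± 0.22 (SD, n = 4), a difference of 1.27 (SE 0.096) or 2.42-fold. The gap between the groups was 1.06, and the difference without single arrays ranged from 1.17 (without reverted array 4) to 1.33 (without reverted array 3).

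Tmem108, the endosomal membrane protein gene, stood at 9.43, 10.09, 9.90 and 9.48 in quiescent arrays 1 to 4 and at 10.92, 11.03, 10.98 and 10.97 in reverted arrays 1 to 4. Here the quiescent group was the uneven one, with arrays 2 and 3 above arrays 1 and 4, while the reverted arrays were within 0.11 of each other. The means were 9.72 ± 0.32 and 10.98 ± 0.045 (SD, n = 4), a difference of 1.25 (SE 0.13) or 2.38-fold. The gap between the groups was 0.84. The difference was 1.15 without quiescent array 1 and 1.37 without quiescent array 2.

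Bicc1, the RNA-binding protein gene, stood at 11.03, 11.08, 11.01 and 11.00 in quiescent arrays 1 to 4 and at 11.65, 11.56, 11.35 and 11.53 in reverted arrays 1 to 4. The quiescent arrays were nearly identical, and reverted array 3 was the lowest of its group. The means were 11.03 ± 0.037 and 11.52 ± 0.12 (SD, n = 4), a difference of 0.49 (SE 0.060) or 1.40-fold. Its other probe set read 10.17, 10.24, 10.24 and 10.14 against 10.84, 10.75, 10.61 and 10.92, a difference of 0.59, so that neither probe set reached 2-fold. The gap between the groups was 0.27 for the probe set used and 0.38 for the other, and for the probe set used it was 0.44 without reverted array 3. Bicc1 lay at level percentile 88.7 of all genes, and the other 4 genes between percentiles 50.4 (Lgi2) and 77.7 (Tmem108). A difference can be compressed at high levels, and whether this applies to Bicc1 was not tested.

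**Figure D2:**
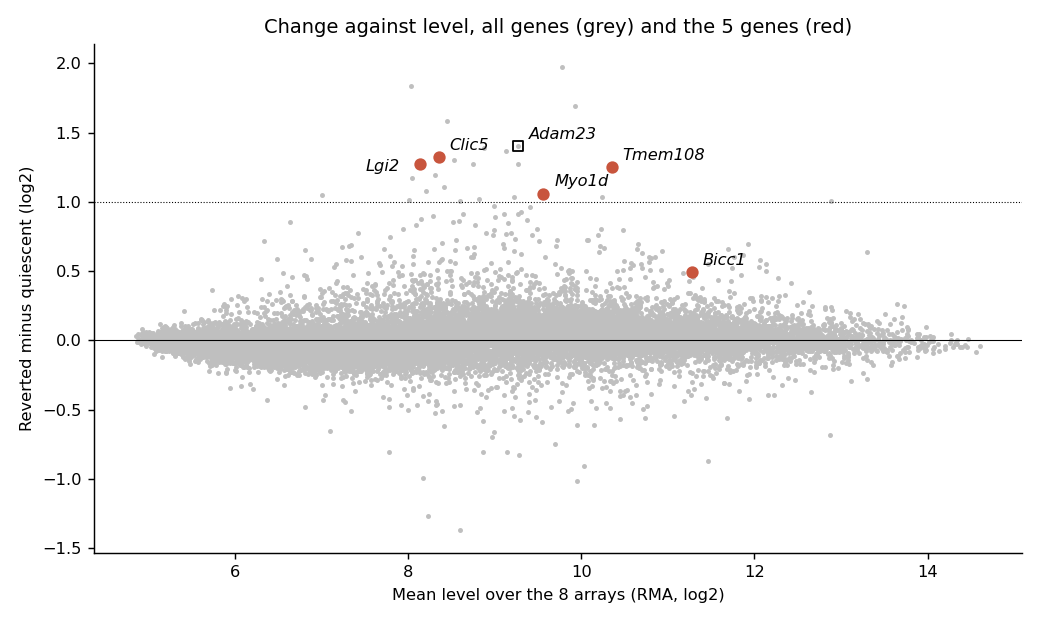
Difference between group means (reverted minus quiescent, log2) against the mean level over the 8 arrays (RMA, log2) for all 19938 genes (grey), with the 5 genes in red and the Lgi receptor gene Adam23 as an open square. The dotted line marks a 2-fold rise: Clic5, Lgi2, Tmem108 and Myo1d lie above it and Bicc1, at 0.49, below it.

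Ranked by difference over all 19938 genes, Clic5 held place 8, Lgi2 10, Tmem108 13, Myo1d 18 and Bicc1 155. Leaving out predicted and unnamed genes, the genes next above Clic5 were Tmem100 (1.37, SE 0.63) and Wt1 (1.39, SE 0.16), and those next below Bicc1 were Ctsc (0.489, SE 0.063) and Tc2n (0.486, SE 0.32). The SE of Tmem100 and of Tc2n was larger than that of any of the 5 genes.

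The spread within groups divided the 5 genes. In Clic5, Lgi2 and Bicc1 the SD was larger among reverted arrays, by 3.85, 6.38 and 3.35 times. In Tmem108 and Myo1d it was larger among quiescent arrays, by 7.18 and 2.53 times. The median over all genes of the reverted over the quiescent SD was 0.875, and a ratio as high as that of Lgi2 occurred in 0.522% and one as low as that of Tmem108 in 0.757% of genes. With 4 arrays a group, such ratios are imprecise, and they were not tested.

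**Figure D3:**
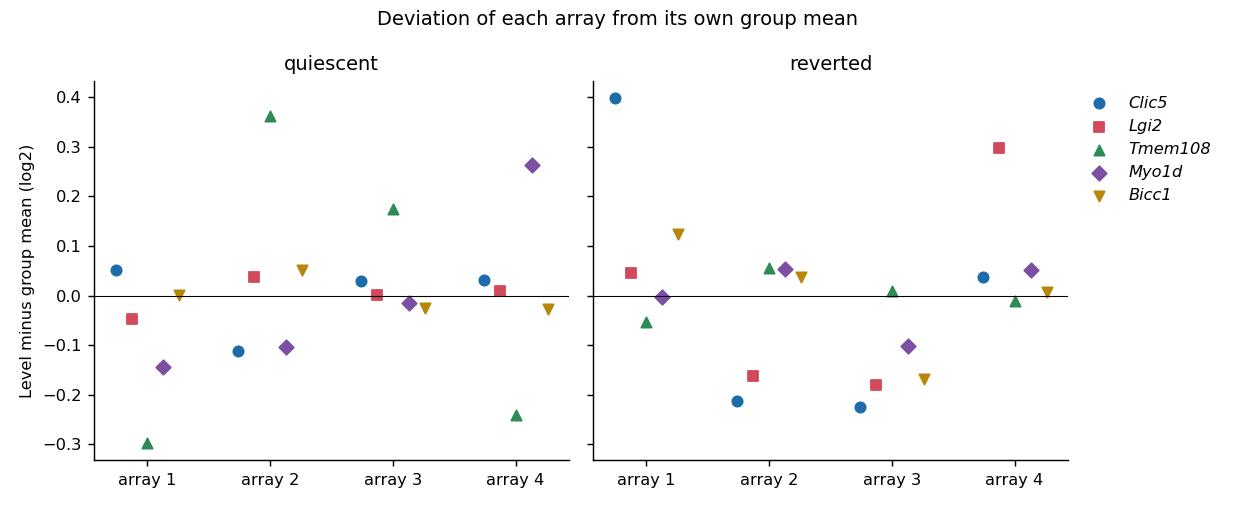
Level of each gene in each array minus the mean of that array's own group (log2), quiescent arrays on the left and reverted arrays on the right. Clic5 and Lgi2 are above 0 in reverted arrays 1 and 4 and below 0 in arrays 2 and 3, while Tmem108 spreads from -0.30 to 0.36 among quiescent arrays and stays within 0.055 of 0 among reverted arrays.

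Relations between the genes were read from these deviations, since the groups form separate clusters of 4 arrays and a pooled correlation would only restate the difference between groups. No quiescent array was above its group mean in all 5 genes, and the count was 2, 3, 3 and 3 in quiescent arrays 1 to 4. In reverted arrays 1 to 4 it was 3, 3, 1 and 4. Clic5 and Lgi2 shared the sign of their deviation in all 4 reverted arrays, with 0.40 and 0.045 in array 1, -0.21 and -0.16 in array 2, -0.22 and -0.18 in array 3, and 0.038 and 0.30 in array 4. In the quiescent group they differed in sign in arrays 1 (0.051 and -0.047) and 2 (-0.11 and 0.037). Among quiescent arrays, Tmem108 and Myo1d differed in sign in arrays 2, 3 and 4, with 0.36 against -0.10, 0.18 against -0.016 and -0.24 against 0.26. The 5 genes did not move from array to array as 1 block within the groups.

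As a measure of likeness, each gene was centred on its own mean over the 8 arrays and the root mean square difference between profiles was taken, which counts both the size of the group difference and the deviations within groups. The closest pair was Clic5 and Lgi2, at 0.17, and only 1 of the 19937 other genes was closer to Clic5 than Lgi2 was. The choice of the 5 genes used the group difference that the measure counts, so nothing is read from high ranks among them. Myo1d followed at 0.19 from Lgi2 and 0.24 from Clic5. Tmem108 was 0.24 from Lgi2, 0.28 from Myo1d and 0.31 from Clic5. Bicc1 stood between 0.32 (from Myo1d) and 0.44 (from Clic5) from the others. Clic5 ranked 19715 among the 19937 genes ordered by closeness to Bicc1, so that most genes had a profile closer to that of Bicc1 than Clic5 did. The measure keeps the size of the group difference, 0.49 for Bicc1 and 1.32 for Clic5. Genes that hardly changed can therefore rank nearer to Bicc1 than Clic5 does, and the rank does not show an unlike pattern. In the other direction, Bicc1 ranked 71 among the 19937 genes ordered by closeness to Clic5. On the deviations within groups alone, Bicc1 was 0.15 from Clic5 and 0.13 from Lgi2, below the 0.17 between Clic5 and Lgi2. These deviations were not scaled, and a small spread alone lowers the value. Among reverted arrays the SD was 0.12 for Bicc1, 0.29 for Clic5 and 0.22 for Lgi2.

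Over the same 8 arrays, the 3 named genes nearest to each of the 5 were found among all genes, and they too are higher in reverted cells because the measure asks for it. Nearest to Clic5 were the matrix protein gene Svep1 (0.11), Lgi2 and the aminopeptidase A gene Enpep (0.19). Nearest to Lgi2 were the L-type calcium channel gene Cacna1c (0.11), Svep1 (0.16) and Clic5. Nearest to Tmem108 were the serine protease inhibitor gene Serpina3n (0.19), the adhesion receptor gene Adgrg6 (0.20) and the BMP ligand gene Bmp6 (0.22). Nearest to Myo1d were Ano4, of the anoctamin family (0.065), Adgrg6 (0.14) and the semaphorin gene Sema5a (0.15). Nearest to Bicc1 were Ikbke, encoding a kinase of innate immune signalling (0.084), Asxl3 (0.085) and the Wnt5a receptor gene Ror1 (0.089). Svep1 was shared by Clic5 and Lgi2, and Adgrg6 by Tmem108 and Myo1d. Ano4 was nearer to Myo1d than any named gene was to the other 4, with 7.50 in quiescent and 8.51 in reverted cells.

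Families and known partners of the 5 genes were examined next, since the rule did not choose them. Of 68 listed genes 63 were measured, and in limma with Benjamini-Hochberg adjustment 0 rose and 0 fell, against 0.712% of all genes called in either direction. At an unadjusted p under 0.05 there were 17 of the 63, or 27% against 16% of all genes. With array weights 2 were called, Adam23 and Dst. Differences of 58 of the 63 were smaller than 0.2, and the median was -0.02 beside -0.008 over all genes. The share of all genes with differences this small was not counted, so nothing is read from the 58. All reverted arrays lay above all quiescent arrays in 6 of the 63 (9.52% against 4.64% of all genes) and below them in 8 (12.7% against 4.09%). Those above were Myo6, Adam23, Dst, Calm3, Cnot6 and Cnot7. Those below were Rdx, Adam22, Kcna2, Sh3gl3, Dync1i1, Cyfip2, Myo1h and Pkd1.

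In the Clic family and ezrin-type partners of Clic5, 0 of 13 measured members passed, with 4 higher and 9 lower means and a median of -0.03. Clic4, a close relative of Clic5, had a difference of 0.05 (adjusted p = 0.59 in limma), and Clic1 had 0.06 (adjusted p = 0.716). Clic3 stood at 7.69 and 7.50 (-0.19, adjusted p = 0.243) and Clic6 had -0.03 (adjusted p = 0.783). Clic6 lay at level percentile 12.7, where a difference may be understated. The linker genes Ezr (-0.01), Rdx (-0.08) and Msn (0.03) and the scaffold genes Slc9a3r1 (-0.18, adjusted p = 0.393) and Slc9a3r2 (-0.07, adjusted p = 0.379) did not pass either. Myo6, the minus-end directed myosin of stereocilia, had the smallest p in the list, at 11.13 ± 0.066 and 11.29 ± 0.033 (SD, n = 4; adjusted p = 0.133 in limma). The largest upward difference among these 13 genes was the 0.17 of Myo6, against 1.32 for Clic5.

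In the Lgi family with its receptors and channel partners, 0 of 13 passed, with 4 higher and 9 lower means and a median of -0.07. The ligand genes Lgi1 (-0.05), Lgi3 (0.03) and Lgi4 (0.00) had adjusted p between 0.615 and 0.978 in limma. Lgi1 lay at level percentile 5.93, where a difference may be understated. Adam23, which encodes a receptor of Lgi proteins, stood at 8.14, 9.27, 8.25 and 8.62 in quiescent arrays 1 to 4 and at 9.90, 10.58, 9.62 and 9.79 in reverted arrays 1 to 4. Array 2 was the highest of each group, and every reverted array lay above every quiescent array, as in 4.64% of all genes. Its difference of 1.40 (SE 0.27), or 2.64-fold, was numerically above that of each of the 5 genes, and it missed the limit in limma (adjusted p = 0.0553). Its adjusted p ran from 0.0106 to 0.148 over 16 alternatives and was under 0.05 in 6 of them, which included the fit without quiescent array 2 (1.64, adjusted p = 0.0207). The receptor gene Adam22 had a difference in the other direction, from 6.38 ± 0.19 to 6.03 ± 0.068 (SD, n = 4; adjusted p = 0.12 in limma), and lay at level percentile 18.5, where a difference may be understated. Adam11 (-0.20, adjusted p = 0.337) and the potassium channel gene Kcna2 (-0.13, adjusted p = 0.234) did not pass. In Adam22 and Kcna2 every reverted array lay below every quiescent array, as in 4.09% of all genes.

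Of 13 measured endocytic and actin-nucleating partners of Tmem108, 0 passed, with 5 higher and 8 lower means and a median of -0.02. Dst, which encodes the cytolinker dystonin that binds Tmem108, stood at 10.55 ± 0.073 and 10.77 ± 0.070 (SD, n = 4), a difference of 0.22 with an adjusted p = 0.107 in limma. It passed only with array weights (0.23, adjusted p = 0.0498). Cyfip2 (-0.15, adjusted p = 0.173) and Wasf1 (0.14, adjusted p = 0.228) belong to the WAVE complex that drives branched actin, and Sh3gl3 (-0.09, adjusted p = 0.265) encodes an endophilin. The neurotrophin receptor gene Ntrk2 (-0.06) and its ligand gene Bdnf (-0.02) did not pass. Ntrk2 lay at level percentile 16.5, where a difference may be understated.

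Of 8 measured class I myosins and calmodulin light chains, 0 passed, with 2 higher and 6 lower means and a median of -0.08. The myosin genes Myo1c (-0.08, adjusted p = 0.394), Myo1e (-0.06, adjusted p = 0.72) and Myo1h (-0.16, adjusted p = 0.22) had lower means in reverted cells, and the light chain genes Calm2 (-0.12, adjusted p = 0.332) and Calm3 (0.10, adjusted p = 0.253) lay on either side of 0. The largest upward difference in this list was the 0.10 of Calm3.

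Of 16 measured genes tied to Bicc1, 0 passed, with 12 higher and 4 lower means and a median of 0.03. The SAM domain partner genes Anks3 (0.02) and Anks6 (-0.01) had adjusted p of 0.813 and 0.917 in limma. Among subunits of the CCR4-NOT deadenylase, Cnot6 (0.17, adjusted p = 0.114) and Cnot7 (0.16, adjusted p = 0.141) did not pass. In both, every reverted array lay above every quiescent array, as in 4.64% of all genes. The protein kinase A inhibitor gene Pkia (0.29, SE 0.11, adjusted p = 0.244), an mRNA target of Bicc1, had the largest difference of the list, and the adenylate cyclase gene Adcy6, another target, was at 0.00. The polycystin gene Pkd1 stood at 12.06 and 11.98 (adjusted p = 0.288). Its reverted arrays all lay below its quiescent arrays, as in 4.09% of all genes.

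**Figure D4:**
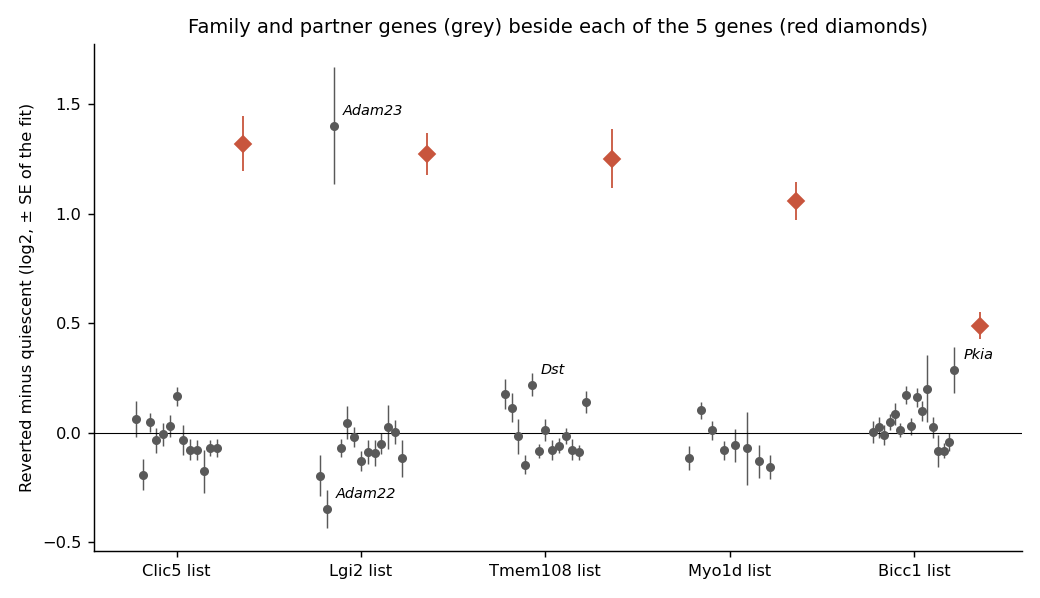
Difference between groups (reverted minus quiescent, log2, with the SE of the limma fit) of each measured family or partner gene (grey) in the lists built around the 5 genes, with the gene itself as a red diamond. Apart from Adam23 at 1.40, the grey points lie between -0.35 (Adam22) and 0.29 (Pkia).

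Markers of stellate cells and of other liver cells were read in the same arrays. Of 13 stellate markers 0 rose and 0 fell in limma, against 0.527% and 0.186% of all genes. All 13, however, had a lower mean in reverted cells. Ngfr and Colec11 had every reverted array below every quiescent array, as 4.09% of all genes did. The 13 stellate markers lay at level percentiles from 96.5 (Hand2) to 99.98 (Dcn), where a difference can be compressed. Their mean per array ran from 13.70 to 13.74 in quiescent and from 13.64 to 13.70 in reverted arrays. Hepatocyte markers (16 of 18 measured, 15 with a higher mean, 0 rises and 1 fall, that of Trf) had a mean from 8.31 to 9.17 in quiescent and from 8.89 to 9.36 in reverted arrays, a shift of 0.42. Endothelial markers (16 of 16, 11 with a higher mean, 0 called) ran from 8.24 to 8.63 and from 8.37 to 8.90, a shift of 0.15. The means of both lists overlapped between the groups. The portal fibroblast and mesothelium list (15 of 15, 2 rises, Wt1 and Dpt) did not overlap, with 7.82 to 7.89 in quiescent and 7.93 to 8.16 in reverted arrays, although 11 of its 15 members had a lower mean, among them the mesothelial markers Msln (-0.10) and Upk3b (-0.09). Cd34 (0.60, adjusted p = 0.0632 in limma), Dpt and Wt1 had every reverted array above every quiescent array, as 4.64% of all genes did. In this list 0 members had every reverted array below. The hepatocyte markers Apoa1, Hpx and F2, the endothelial marker Clec4g and the macrophage marker Lyz2 were separated upward in the same way. Trf and the macrophage marker Cx3cr1 had every reverted array below every quiescent array. Of the called markers, Wt1 kept an adjusted p under 0.05 in limma with each array left out, Dpt did not without reverted array 3 (0.0514) or 4 (0.0703), and Trf did so only without quiescent array 4 (0.0459). Macrophage, cholangiocyte and smooth muscle markers had shifts of 0.03, -0.05 and 0.09 with 0 called. On the scale of summed intensities, the log2 sum ran from 13.5 to 14.3 in quiescent and from 13.9 to 14.3 in reverted arrays for hepatocyte markers, from 14.5 to 14.6 and from 14.6 to 14.8 for endothelial markers, and from 12.5 to 12.6 and from 12.7 to 13.1 for portal fibroblast and mesothelium markers. The brightest genes weigh most in such sums. Among endothelial markers this was Eng, with means of 14.02 in quiescent and 14.01 in reverted arrays. Among hepatocyte markers they were Trf (12.53 and 12.26) and Alb (11.86 and 12.41). An array gives no true 0, so no marker can be read as absent.

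Some marker means had an order of arrays similar to that of Tmem108, Clic5 or Lgi2 inside a group. These orders were noticed after the values were seen, among many pairs of genes and lists, and 4 arrays can share an order by chance. Among quiescent arrays, Tmem108 and the endothelial mean had the same order, with arrays 2 (10.09 and 8.63) and 3 (9.90 and 8.48) above arrays 4 (9.48 and 8.28) and 1 (9.43 and 8.24), and the hepatocyte mean was also higher in arrays 2 (9.17) and 3 (8.86) than in arrays 1 (8.51) and 4 (8.31). In the reverted group Tmem108 was level while the hepatocyte mean ran from 8.89 to 9.36. The endothelial mean of that group was lowest in array 2 (8.37), where Tmem108 was highest (11.03), and highest in array 4 (8.90). Quiescent array 2 exceeded reverted array 2 in the hepatocyte mean (9.17 against 8.89) and in the endothelial mean (8.63 against 8.37), and Tmem108 was 10.09 in the former and 11.03 in the latter. Clic5 was highest in reverted array 1, where the portal fibroblast and mesothelium mean (8.16) and the hepatocyte mean (9.36) were also highest. The macrophage (6.92) and cholangiocyte (6.98) means were highest in that reverted array too. Among quiescent arrays, Clic5 was lowest in array 2 (7.58). There the hepatocyte (9.17), endothelial (8.63), portal fibroblast and mesothelium (7.89), macrophage (6.92) and cholangiocyte (7.04) means were the highest of the quiescent group. The hepatocyte mean, like Clic5, was higher in reverted arrays 1 and 4 (9.19) than in arrays 2 (8.89) and 3 (9.10). Bicc1 was also highest in reverted array 1, and Lgi2 was highest in reverted array 4, where the endothelial mean was highest (8.90). The part of these cell types in the levels of Tmem108, Clic5, Lgi2 and the other 2 genes was not tested.

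**Figure D5:**
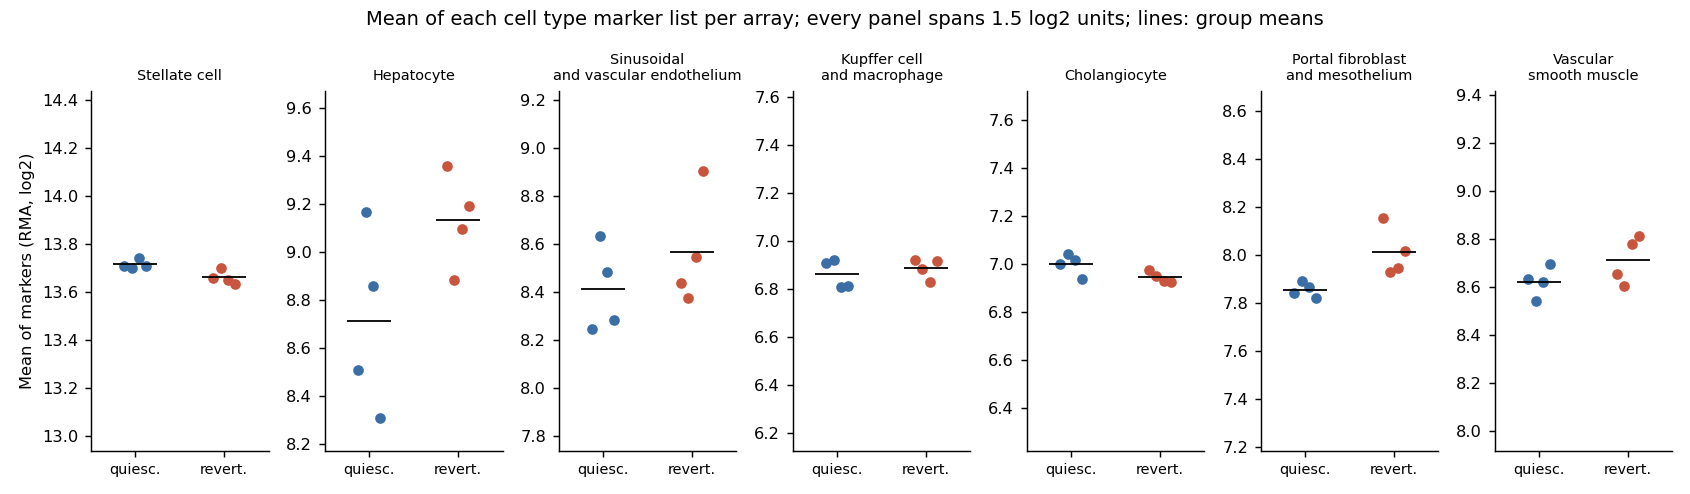
Mean level (RMA, log2) of each cell type marker list in each array, quiescent in blue and reverted in red, with black lines for the group means and the same 1.5 log2 units on every axis. Hepatocyte and endothelial means overlap between the groups, and only the portal fibroblast and mesothelium list has all reverted arrays above all quiescent arrays.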

How the data were processed

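The authors deposited log2 values per probe set made with RMA, per the submitters' processing notes, and their version, settings and build are not given in the sources used here. All 8 columns were matched to the samples by name, with 0 columns without a sample. Of 35556 probe sets, 21789 carry 1 gene symbol, 1621 several and 12146 none in the platform's annotation. Where a gene had several single-symbol probe sets, the one with the highest mean was used, which left 19938 genes, and no filter on dim genes was applied. RefSeq names and promoter windows are those of GRCm38.p6.

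Groups were compared over all genes by limma 3.58.1 (lmFit, then eBayes; R 4.3.3) with a 2-sided test, no covariates and Benjamini-Hochberg adjustment. Tables were made with Python 3.11.15 and pandas 2.3.3. These steps were tested on simulated data with independent scatter for each gene, where most known 2-fold changes were recovered. The check set no requirement on the recovery of smaller changes. Alternatives were quantile normalization, array medians centred, filters on dim genes, the mean of probe sets, a robust variance with an intensity trend, weights per array, the replicate number as a block, and each array left out. No detection values were used, and precision is limited by the number of arrays.

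The 5 genes and all lists were chosen with earlier results of these data known. The text names the 5 genes, the genes of each partner list past the threshold or with the smallest p up to 4, the 3 nearest profiles to each gene and the 2 next above and below in difference. Other list members, such as Clic4, Lgi1 and Anks3, and the markers were added after their values were seen.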

Additional observations from a re-analysis of the deposited data

Results flagged for a closer look

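Of 36 genes named among the 5 genes, their partners and nearest profiles, each group of 4 arrays was checked for an array far from the others, 72 groups in all, and 2 arrays were found, where chance gives about 1 in 20 groups. Clic5 in quiescent array 2 stood at 7.58, and the other quiescent arrays lay between 7.72 and 7.75. Adgrg6, a nearest profile of Tmem108 and Myo1d, stood at 9.46 in quiescent array 1, and the other quiescent arrays lay between 9.80 and 9.82.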

How the results depend on the processing

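The differences of the 5 genes kept their direction under all 16 alternatives and moved by less than the SD pooled over both groups, with ranges of 1.19 to 1.40 for Clic5, 1.17 to 1.33 for Lgi2, 1.15 to 1.37 for Tmem108, 1.01 (quantile normalization) to 1.15 for Myo1d and 0.45 to 0.55 for Bicc1. Their groups never overlapped, and the smallest gap was 0.20, for Bicc1 after quantile normalization. The counts over all genes moved more. Against 105 higher and 37 lower genes, quantile normalization gave 91 lower, and array weights gave 218 and 88. The replicate numbers do not pair the arrays, since same-numbered arrays had deviations correlated between -0.15 and 0.081 and 0 of 4 correlated best with its own number, and the replicate block gave 48 higher and 15 lower genes, with 1 call in the Lgi list (Adam23, adjusted p = 0.0106). With single arrays left out, the counts ran from 41 to 175 higher and from 13 to 72 lower, with 53 and 20 without quiescent array 1, 20 lower without quiescent array 3, 175 and 72 without quiescent array 4, 14 lower without reverted array 2, 41 and 18 without reverted array 3, and 41 and 13 without reverted array 4. In the Lgi list the count of calls was 0, and it was 1, Adam23, with array medians centred, with the dimmest 25% or 50% of genes removed and with array weights, and from 0 to 1 without single arrays. In the Tmem108 list 1 gene, Dst, was called with array weights against 0. The other 3 partner lists had 0 calls under all 16 alternatives. The causes were not tested.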
